A study of Homo sapiens with 8 samples.

Results

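H716 is a human line from a colorectal adenocarcinoma of the cecum, and it was described here against the 7 other cancer cell lines of the same series. It is 1 of 8 libraries, chosen by its label, with 1 library per line. RNA sequencing gave an FPKM (fragments scaled to transcript length and to the mapped fragments of the library) for 58202 Ensembl gene identifiers in each line. The other lines were the lung lines H522 (non-small cell cancer), H661 (large cell cancer) and H146 (small cell cancer), the endometrial lines KLE (adenocarcinoma) and HEC59 (carcinoma), the glial line 1321N1 (brain astrocytoma) and the ovarian line COV318 (epithelial-serous carcinoma). All 8 lines had been kept in plates for 48 hours before RNA extraction, with no treatment named in the labels, and H716 was at passages 4 to 8. The series was designed around the kinase inhibitor ibrutinib, which blocks Bruton's tyrosine kinase, in lines that express the receptor ERBB4, with 4 responsive and 4 non-responsive lines, but the labels do not say to which group H716 belongs. A line is a single tumour grown in culture. No difference below has a replicate check, and none was tested.

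The lining of the gut renews itself from stem cells and yields absorptive cells, mucus-secreting goblet cells and hormone-secreting enteroendocrine cells. Absorptive cells carry a brush border of microvilli and depend on transcription factors of the CDX and HNF families. Enteroendocrine cells pass through a stage that expresses ATOH1 and then NEUROG3, store peptide hormones in dense-core granules, and cut the hormones from larger precursors with prohormone convertases. The L cells of the lower gut make glucagon-like peptides and peptide YY.

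Levels were compared as log2(FPKM + 1), over the 19209 genes that reached an FPKM of 1 in at least 1 line, of which 13954 were protein-coding. A gene was counted as above every other line where H716 exceeded the highest of the other 7 lines by at least 1 on the log2 scale, and as below every other line where it fell short of the lowest by at least 1. In H716, 489 protein-coding genes (3.5% of those compared) were above every other line and 139 (0.996%) were below. H146, the small cell lung line, had larger shares of both kinds (3.74% and 2.74%), and the other 6 lines had 197 to 391 above and 29 to 148 below. The genes just inside the upper limit were SESN3, a stress-induced sestrin, at 21.6 against 10.3 in HEC59, and GAS2L3 at 80.3 against 39.6 in H146. Those just outside it were LARP4B, an RNA-binding protein, at 89.6 against 44.4, and the kinase AKT1 at 57.2 against 28.3. On the lower side, ZNF583 was just inside (0.261 against 1.53) and ACAD11 just outside (0.759 against 2.52). Of the 489 genes, 201 had a margin of at least 2 and 45 of at least 4. For 158 of them no other line reached an FPKM of 1, and 18 were listed at 0 in all 7 other lines. Of the 139 genes below, 95 were under an FPKM of 1 in H716 and 11 were listed at 0.

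**Figure D1:**
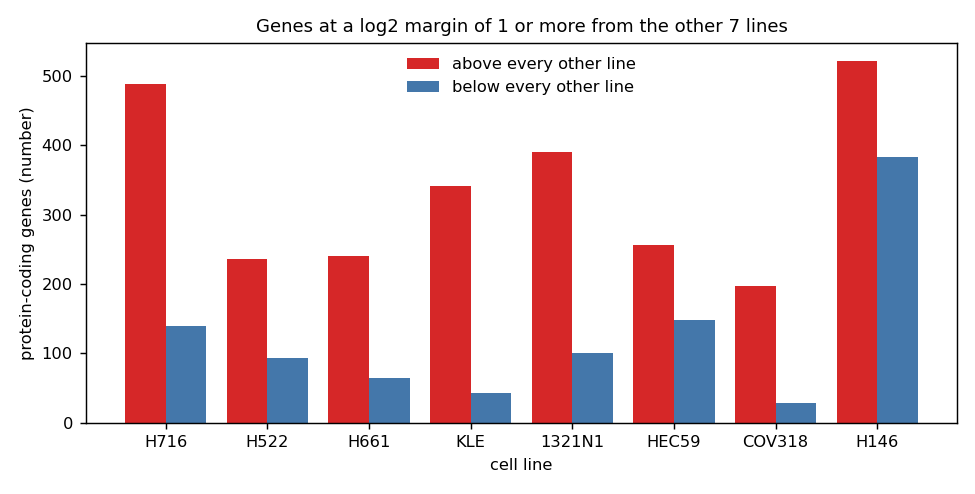
Number of protein-coding genes (y axis) at a log2 margin of 1 or more above the highest (red bars) or below the lowest (blue bars) of the other 7 lines, for each of the 8 lines in turn (x axis, 1 library each). H716 has 489 above and 139 below, and H146 alone has more above, 3.74% of the genes compared.

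The H716 library was near the others in most of its overall measures. It had the fewest genes at an FPKM of 1 or more, 12205 against up to 13300. Mitochondrial genes made up 7.75% of its summed FPKM, within the 4.37% to 16.1% of the others. KLE, 1321N1 and HEC59 held extreme values, which H716 did not, and these were left out of their sums here. With them the sums were 2452065, 1380949 and 846097, and without them 482065, 511451 and 397053, against 492688 in H716. The part of the extreme values in the results was not tested. The median difference of protein-coding genes from the median of the other lines was -0.01 (log2), and the 10 housekeeping genes all lay within a log2 margin of 1 of the other lines' range. Spearman correlations across protein-coding genes, which share 1 library per line, were 0.767 with H661 at the highest and 0.731 with H146 at the lowest. From the steps in low values, the depth of H716 was 0.473 times that of 1321N1 and 1.26 times that of KLE, with the other lines between. These steps matched less well with 1321N1, HEC59, COV318 and H146 (8.43% to 15.6% of the values compared) than with H522, H661 and KLE (20.05% to 31.4%). The part of this division in the results was not tested. H661 held low values of genes that H716 expressed strongly. Of 18 protein-coding genes with an FPKM of at least 50 in H716 and at most 2% of that level in each other line, all 18 had a value above 0 in H661, and 7 to 10 did in each of the other 6 lines. H661 was the next highest line in 11 of the 18, with a median of 0.199% of the H716 level, and the medians of the other lines were at most 0.00463%. The source of these values was not tested. Without H661 there were 547 genes above every other line, and the margins of the genes GCG, NNAT and OLFM3, described below, went from 6.69 to 9.15, from 8.37 to 9.80 and from 5.78 to 7.15.

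The largest margin of all belonged to GAS2 (ENSG00000148935), which encodes a protein that links actin to microtubules. GAS2 was at an FPKM of 1669 in H716, and in the other lines it ran from 0 (H522) through a median of 0.0519 to 0.863 (COV318), a log2 margin of 9.81. GAS2 and NNAT are among the 5 genes by which H716 had been marked out in earlier work on these files, so their levels are a description. NNAT (ENSG00000053438), the imprinted gene of the small membrane protein neuronatin, was at 1067 against 0.0249 to 2.24 with a median of 0.0988, a margin of 8.37. For both genes H716 was high alone and the other 7 lines lay together near 0. In a bulk library a larger share of expressing cells and more RNA per cell cannot be told apart.

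Relatives and neighbours of both genes were looked at next. The GAS2 family has 2 more members that were compared. GAS2L3 was at 80.3 in H716 and 7.56 to 39.6 elsewhere, and its margin went under 1 with each of 3 other scalings and with a pseudocount of 5. GAS2L1 was at 0.977, within the range of 0.221 to 9.40. SVIP, which lies beside GAS2 on chromosome 11 and encodes an inhibitor of protein degradation at the endoplasmic reticulum, was above every other line by a smaller margin, at 23.1 against 0.0557 to 10.5. Over the 10 protein-coding genes around GAS2, the median difference of H716 from the median of the other lines was 1.53 (log2) and SVIP was the only one above every other line, and over the 10 around NNAT the median difference was 0.08 with none above. BLCAP, in whose intron NNAT lies, was at 37.2 in H716, inside the range of 6.74 to 48.0. Of 22 imprinted genes compared, NNAT was the only one past the margin in either direction. That share is near the 3.5% of all protein-coding genes above every other line. PEG10, a retrotransposon-derived imprinted gene, was at 456 in H716 and 314 in H661, and GNAS, which encodes the stimulatory G protein alpha subunit, was at 2055 against 430 to 1360. Both were highest in H716 by less than the margin.

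Next to GAS2 and NNAT in order of margin were SYNGR4, AGR2, GUCA2B and SPINK4. SYNGR4, a synaptogyrin of vesicle membranes, was at 637 in H716 and at most 1.74 (H661) elsewhere. AGR2, a disulfide isomerase that goblet cells need to fold mucins, was at 1367 against 0.125 to 7.37 with a median of 2.96. GUCA2B, the gene of the gut peptide uroguanylin, was at 149.6 and reached 0.102 in H661, with the other 6 lines listed at 0. SPINK4, a serine protease inhibitor of goblet cells, was at 132 against at most 0.226. These 4 were named for the size of their margins, so H716 stood far above every other line in each. AQP3, a water and glycerol channel, was at 70.8 against at most 0.273, OLFM3, a secreted olfactomedin, at 157 against at most 1.86, and ANXA10, a calcium-dependent membrane-binding protein of gastric epithelium, at 83.9 against at most 0.219.

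**Figure D2:**
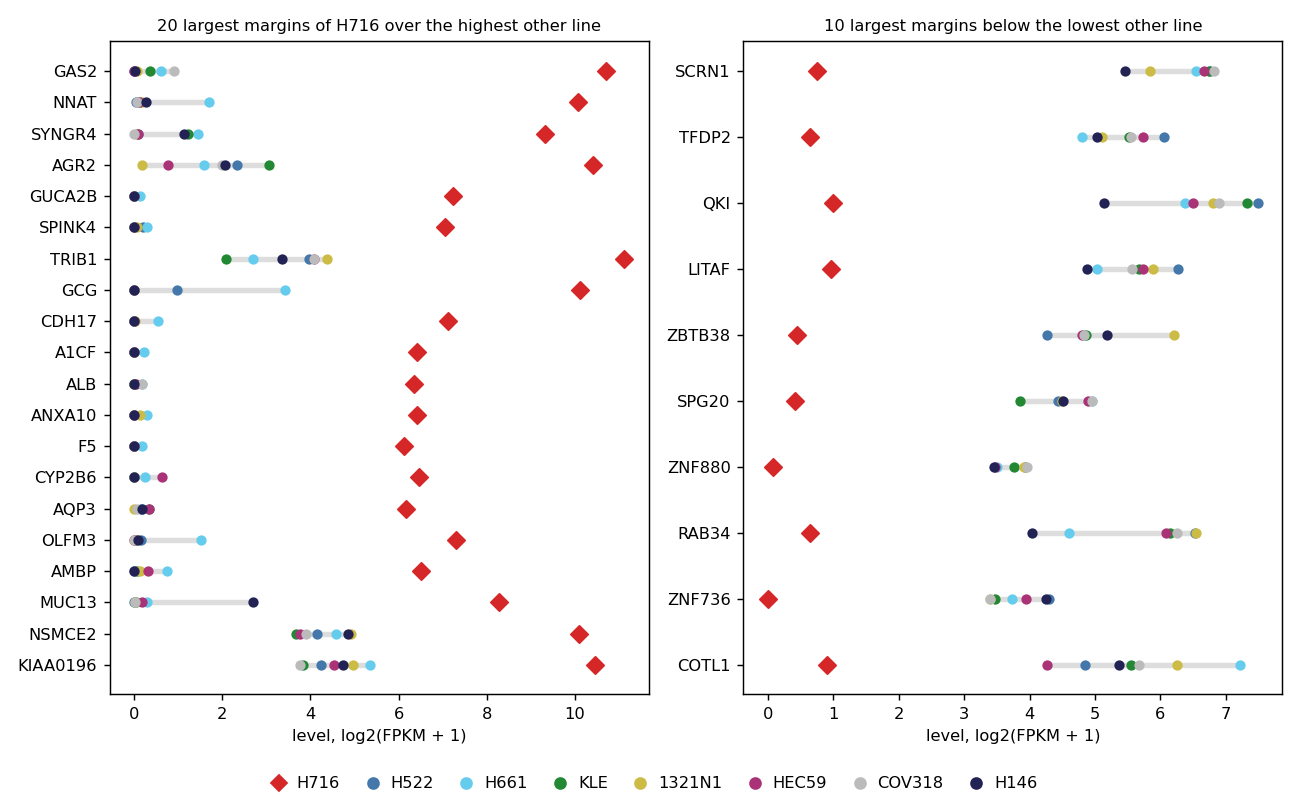
Level in log2(FPKM + 1) (x axis) of the 20 protein-coding genes with the largest margin of H716 over the highest other line (left) and the 10 with the largest margin below the lowest (right), 1 point per line and the grey bar spanning the other 7 lines. H716 (red diamonds) lies outside the bar in every gene, by 9.81 for GAS2 at the top left and by -4.72 for SCRN1 at the top right.

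Levels of intestinal genes were set beside the cecum label. Of a list of 33, 17 reached an FPKM of 1 in some line, 9 of these in H716 alone. Of the 17, 11 were above every other line, beside 3.5% of all protein-coding genes, and none was below. The 9 were compared only because of their level in H716, so the count describes these genes and does not support the label. CDH17 (ENSG00000079112), the liver-intestine cadherin and also one of the 5 genes by which H716 had been marked out, was at 137 in H716, 0.445 in H661, 0.00756 in 1321N1 and 0 in the other 5 lines, a margin of 6.58. MYO1A, the brush-border myosin, was at 22.3 against at most 0.0495, CDHR5, a protocadherin that links microvilli, at 18.9 against at most 0.0649, and MYO7B, a further brush-border myosin, at 9.91 against at most 0.139. A1CF, which directs the editing of APOB messenger RNA in gut and liver, was at 84.2 against at most 0.161. H716 stood apart in all 5 of these genes. They are among the genes above every other line, so the lack of overlap follows from that call. The transcription factors HNF4A (16.1 against at most 1.75) and HNF4G (13.4 against at most 2.80) were also above every other line. CDX2, a homeobox gene that sets intestinal identity, was low at 1.31 against at most 0.0838, GUCY2C, the receptor of guanylin and uroguanylin, was at 3.40 against at most 0.105, and both went under the margin with a pseudocount of 5. TSPAN8, a tetraspanin of digestive tumours, was at 32.5 against 11.96 in H146, and it went under the margin when protein-coding genes were rescaled to the same sum.

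Several defining markers of the colon were absent or low. CDX1, MUC2, KRT20, FABP1, CEACAM5, ASCL2 and OLFM4 were listed at 0 in H716, and LGALS4 (0.376), GPA33 (0.197) and SPDEF (0.826) stayed under an FPKM of 1. VIL1, which encodes villin, was at 1.07 in H716 and 8.74 in H146. TFF3, a goblet cell trefoil peptide, was at 75.03 in H716 and 91.7 in H146 and at most 0.0805 in the other 6 lines, so these 2 lines shared it. LGR5, the intestinal stem cell receptor, was at 5.79, below the 16.0 of COV318 and the 129.96 of HEC59.

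MUC13, a transmembrane mucin of the gut, was not on the list but ranked among the 20 largest margins, at 309 in H716, 5.49 in H146 and at most 0.228 in the other 6 lines. GUCA2A, which encodes guanylin, was at 5.38 and listed at 0 in the other 7 lines. LYZ, a lysozyme that Paneth and myeloid cells secrete, was at 11.1 against at most 0.0687. SI, the brush-border enzyme sucrase-isomaltase, was at 24.4 against at most 0.0429 and was chosen after its value was seen.

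Because HNF4A and HNF4G were above every other line, promoters were searched for the letters of an HNF4 binding motif and of that of CDX factors. Promoter sequences, from 250 bases before to 50 after a gene's start, came from RefSeq on GRCh38.p14 and were matched by symbol for 350 of the 489 genes above and for 10680 of the 13954 genes compared. The letters CAAAGTNCA, an HNF4 motif, occurred on either strand in 6 of the 350 promoters (1.71%), in 0.712% of the promoters of genes compared and in 1.07% of all 27305 promoters in the table. The 6 genes were MUC13, CYP2B6, CLRN3, TM4SF5, UGT2B7 and HAO1. The CDX letters GNNATAAA occurred in 12% against 7.23% and 12.1%, so their share was that of the table as a whole. Matches are descriptions of sequence and not sites of binding. The 200 bases before the start are shown for the 5 genes whose HNF4 letters lie there and for GCG, the most abundant hormone gene of H716, where neither motif occurs in that window. Capitals mark the HNF4 letters in either orientation and, in CLRN3, also a CDX match (TTTATGGC on the strand shown). The windows are chr3:124934752-124934951 for MUC13, chr10:127892942-127893141 for CLRN3, chr20:7940459-7940658 for HAO1 and chr2:162152248-162152447 for GCG, all on the minus strand, and chr17:4771686-4771885 for TM4SF5 and chr4:69096274-69096473 for UGT2B7 on the plus strand.
MUC13: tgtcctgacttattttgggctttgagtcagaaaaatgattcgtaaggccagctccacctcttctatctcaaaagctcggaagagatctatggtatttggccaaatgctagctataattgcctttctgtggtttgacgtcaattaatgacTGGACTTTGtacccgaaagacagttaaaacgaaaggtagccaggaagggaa
CLRN3: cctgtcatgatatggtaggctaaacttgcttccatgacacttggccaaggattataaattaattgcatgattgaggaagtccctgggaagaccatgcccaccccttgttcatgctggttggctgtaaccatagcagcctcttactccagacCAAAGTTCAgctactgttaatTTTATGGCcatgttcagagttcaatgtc
TM4SF5: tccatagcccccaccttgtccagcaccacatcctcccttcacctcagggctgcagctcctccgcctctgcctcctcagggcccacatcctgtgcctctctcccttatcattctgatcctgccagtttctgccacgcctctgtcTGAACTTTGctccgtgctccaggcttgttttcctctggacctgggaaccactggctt
UGT2B7: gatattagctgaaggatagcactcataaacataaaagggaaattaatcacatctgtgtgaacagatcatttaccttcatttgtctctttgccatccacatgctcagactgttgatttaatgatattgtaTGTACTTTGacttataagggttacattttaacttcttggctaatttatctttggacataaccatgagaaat
HAO1: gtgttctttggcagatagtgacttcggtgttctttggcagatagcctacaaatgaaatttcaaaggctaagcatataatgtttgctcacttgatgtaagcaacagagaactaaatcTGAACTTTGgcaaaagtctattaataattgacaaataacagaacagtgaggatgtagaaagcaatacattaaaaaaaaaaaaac
GCG: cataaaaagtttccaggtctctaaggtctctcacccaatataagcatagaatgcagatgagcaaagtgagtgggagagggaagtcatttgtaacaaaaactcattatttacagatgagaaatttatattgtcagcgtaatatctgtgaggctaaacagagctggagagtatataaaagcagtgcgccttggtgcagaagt

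Of these genes, CLRN3, a clarin membrane protein, was at 19.6 in H716 against at most 0.0783, TM4SF5, a tetraspanin-like protein of liver and gut, at 12.4 and listed at 0 elsewhere, and HAO1, a glycolate oxidase of peroxisomes, at 1.31 against at most 0.0230. They were taken from the genes above every other line, so H716 had no overlap with the other lines by that choice. The level of HAO1 was close to the FPKM limit of 1.

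Hormone genes made up a further group. GCG (ENSG00000115263), whose precursor gives glucagon in the pancreas and glucagon-like peptides in the gut, was at 1104 in H716, 9.70 in H661, 0.948 in H522 and 0 in the other 5 lines, a margin of 6.69. SST, which encodes the inhibitory peptide somatostatin, was at 475 in H716, 36.4 in COV318, 3.01 in KLE and at most 0.864 in the other 5 lines, a margin of 3.67. PCSK1, the convertase that cuts proglucagon to glucagon-like peptide 1, was at 125 against at most 4.59 (H146), and CPE, the carboxypeptidase that trims cut hormones, at 115 against at most 25.7 (H146). These 4 genes were above every other line, out of 18 on the list and 13 that reached an FPKM of 1. The share over all protein-coding genes was 3.5%. PCSK2, the convertase that yields glucagon itself, was at 3.35 in H716 and 26.6 in H146. DDC, the decarboxylase of serotonin and dopamine synthesis, was at 49.7 in H716 and 194 in H146, with at most 0.304 elsewhere. PYY and INSL5, hormones of L cells, CCK, the cholecystokinin gene, and TPH1, the first enzyme of gut serotonin synthesis, were listed at 0 in H716, and NTS, the neurotensin gene, was at 1.44 against 971 in H146. H716 was therefore high for GCG and SST among the hormones and not for the peptide YY that L cells also make.

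Most receptors and channels listed for nutrient sensing by endocrine cells of the gut stayed under an FPKM of 1 in H716. The list also held somatostatin receptors. Of 19 genes, 18 were found by name and 9 reached an FPKM of 1 in some line, 3 of them in H716 alone. These 3 were compared only because of that level. All 3 were above every other line, beside 3.5% of all protein-coding genes. GNAT3, the taste G protein gustducin, was at 14.6 against at most 0.0388. SSTR1, a somatostatin receptor, was at 5.17 against at most 0.273, and FFAR2, a receptor of short-chain fatty acids, at 1.47 against at most 0.0718, and both went under the margin with a pseudocount of 5. FFAR1, GPR119, CASR and TRPM5 were listed at 0 in H716, and GPBAR1, the bile acid receptor, was at 0.491.

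Transcription factors of the enteroendocrine lineage divided in the same manner. ATOH1, which commits cells to the secretory lineage, was at 28.0 in H716, RFX6, which endocrine cells of gut and pancreas require, at 14.2, and NEUROG3, which commits cells to the endocrine lineage, at 1.27. All 3 were listed at 0 in the other 7 lines, and NEUROG3 went under the margin with a pseudocount of 5. PDX1, a homeobox gene of duodenum and pancreas that was on the list of stomach and pancreas markers, was at 16.2 against at most 0.0632. ISL1 was at 32.1 in H716 and 22.01 in H146, INSM1 at 5.27 and 81.3, and FOXA2 at 5.26 and 18.9. NEUROD1 and NKX2-2 were listed at 0 in H716. H716 and H146 thus both expressed ISL1, INSM1 and FOXA2. SPDEF and POU2F3, which mark goblet and tuft cells, were at 0.826 and 0.

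Genes of dense-core granules were high in H716, and many were high in H146 also. Of 31 compared, 5 were above every other line, beside 3.5% of all protein-coding genes. CHGB among them had also been used, with 4 other genes, to mark out H716 in earlier work, so its level is a description. CHGB (ENSG00000089199), which encodes the granule protein chromogranin B, was at 55.6 in H716, 12.8 in H146 and at most 0.701 in the other 6 lines, a margin of 2.03. VGF, the precursor of several neuroendocrine peptides, was at 46.4 against at most 0.615, STX1A, a syntaxin of exocytosis, at 26.4 against at most 4.37, and RAB27B, which ties granules to the cell cortex, at 35.7 against 6.90 in 1321N1. SCG3, a secretogranin, was at 68.3 against 27.4 in H146, and its margin of 1.29 went under 1 with each of 3 other scalings. CHGA was at 15.4 in H716 and 7.59 in H146, SCG2 at 54.8 and 87.1, SYP at 6.67 and 6.00, SNAP25 at 17.5 and 67.6, and SYT1 at 67.2 and 101. H716 was higher than H146 in CHGA and SYP and lower in SCG2, SNAP25 and SYT1. Without H146, 16 of 29 granule genes, 9 of 13 lineage transcription factors and 6 of 12 hormone genes were above every other line, beside 4.72% of all protein-coding genes in that setting. Genes that reached an FPKM of 1 in H716 and H146 only, such as CHGB and DDC, were then compared only because of H716. The counts without H146 therefore describe these genes and are not a test. STMN2, a stathmin of growing nerve cells, was at 286 in H716, 87.9 in H146 and 11.5 in KLE.

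**Figure D3:**
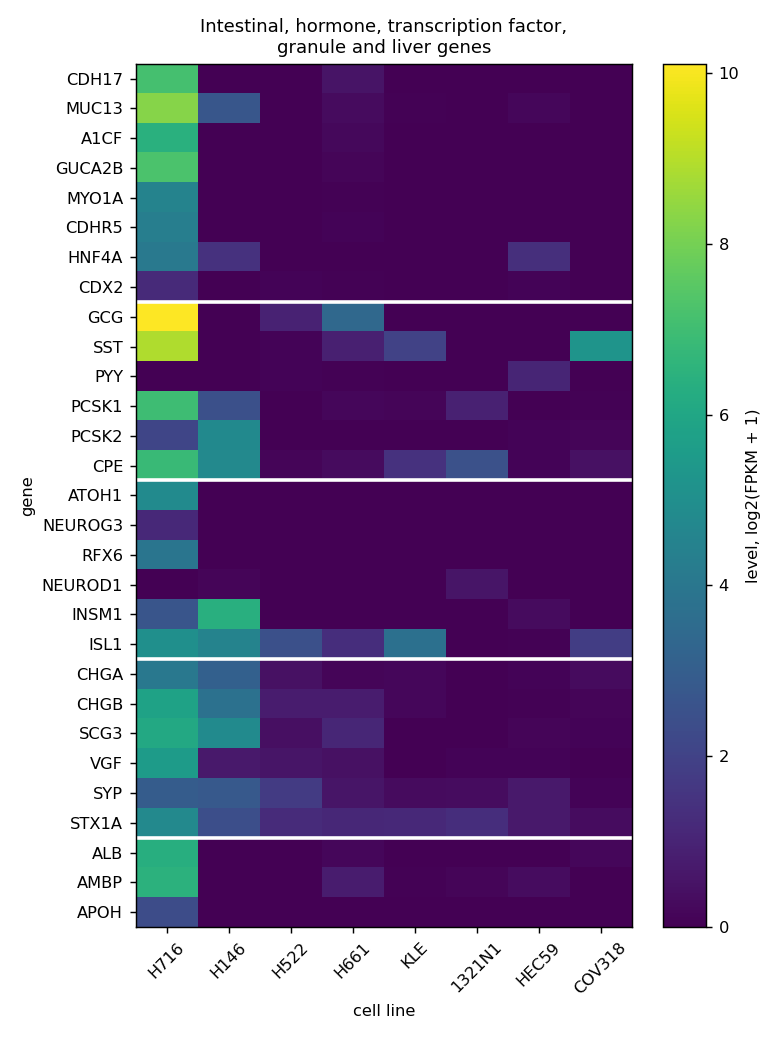
Level in log2(FPKM + 1) (colour) of intestinal, hormone, transcription factor, granule and liver genes (rows, groups divided by white lines) in the 8 lines (columns, 1 library each). H716 is the only bright column for CDH17 (137) and ATOH1 (28.0), and H146 shares CHGB (12.8) and SCG3 (27.4).

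Liver genes appeared beside the intestinal ones. Of 15 on the list, 10 reached an FPKM of 1 in some line, 6 of them in H716 alone. These 6 were compared only because of H716. Of the 10, 5 were above every other line, beside 3.5% of all protein-coding genes. ALB, the serum albumin gene, was at 80.3 in H716 against at most 0.128, and AMBP, the precursor of alpha-1-microglobulin, at 89.8 against at most 0.684. APOH (4.04), FGB (3.29) and APOA2 (1.14), of plasma lipoproteins and clotting, were lower and went under the margin with a pseudocount of 5. F5, which encodes coagulation factor V, was at 68.8 against at most 0.129 and was not on the list. APOA1, APOC3, TF and FGG were listed at 0 in H716, APOB was at 0.00272 and TTR at 1.12. Of the 15, 7 were at an FPKM of 1 or more in H716.

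Of 18 drug transporters and drug-metabolising genes compared, ABCB1, CYP3A5 and UGT2B7 were above every other line, beside 3.5% of all protein-coding genes. The summed FPKM of all 18 genes was 357 in H716, near the 355 of COV318. ABCB1 (ENSG00000085563), which encodes the efflux pump P-glycoprotein, was at 40.4 in H716, 6.74 in COV318, 0.857 in KLE and at most 0.0502 in the other 5 lines, a margin of 2.42. ABCB1 is also among the 5 genes by which H716 had been marked out, so its level is a description. Of 8 ABC transporters compared, it was the only one past the margin. ABCC2 was at 10.3 in H716 and 5.79 in 1321N1, ABCC1 at 11.4 against 2.95 to 26.1, and ABCG2, the other classical pump of multidrug resistance, was at 0.978, under the FPKM limit in all lines. CYP3A5, a cytochrome of drug oxidation, was at 8.28 against at most 0.977, while CYP3A4 and its regulator NR1I2 were listed at 0. CYP2B6, a further drug-oxidising cytochrome that was not on the list, was at 86.6 against at most 0.543. UGT2B7, a glucuronosyltransferase, was at 33.8 against 9.43 in HEC59 and 6.73 in COV318. In this group H716 was alone in CYP2B6 and CYP3A5, and other lines came nearer in ABCB1 and UGT2B7.

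Families of near-identical enzymes, chosen after their values were seen, had 6 of 8 UGT2 genes, 2 of 8 AKR1 genes and 1 of 3 GSTA genes above every other line, beside 3.5% of all protein-coding genes. The 6 UGT2 genes were UGT2B7, UGT2B11 at 22.6 and UGT2B28, UGT2B15, UGT2A3 and UGT2B10 at 6.86, 6.81, 6.27 and 5.81. AKR1C3 and AKR1C4, aldo-keto reductases of steroid metabolism, were at 504 and 100.2 against at most 43.2 and 3.83. GSTA2, a glutathione transferase, was at 38.2 against at most 1.20, and GSTA1 at 29.3 in H716 and 17.7 in H146. The treatment of fragments shared by such copies is not given in the labels, so the values of single members are uncertain.

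Neighbouring genes on chromosome 8 were above every other line together. Protein-coding genes were placed in the order of GENCODE v29 on GRCh38, and runs of at least 3 neighbours that were all above every other line were counted. The longest run of any line was in H716 and held 10 genes, in the order TATDN1, NDUFB9, MTSS1, ZNF572, SQLE, KIAA0196, NSMCE2, TRIB1, FAM84B and POU5F1B. The other lines had longest runs of 3 to 7 genes. TRIB1, a pseudokinase that steers proteins to degradation, was at 2227 in H716 and at 3.23 to 19.8 with a median of 14.7 elsewhere, a margin of 6.74. NDUFB9, a subunit of respiratory complex I, was at 7115 against 93.2 to 298, and SQLE, an enzyme of cholesterol synthesis, at 1461 against 7.89 to 47.1. MTSS1, an actin and membrane scaffold, was at 2001 against 0.375 to 71.3. None of the 4 genes overlapped with the other lines, which follows from the definition of a run.

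The remaining members of the run followed. KIAA0196, which encodes the endosomal WASH subunit strumpellin, was at 1410 against 12.5 to 39.7, and NSMCE2, a SUMO ligase of DNA repair, at 1085 against 11.7 to 29.5. FAM84B was at 186 against at most 29.5, TATDN1 at 136 against at most 13.1 and ZNF572 at 26.04 against at most 2.64. POU5F1B, a copy of POU5F1 whose counts could be shared with it, was at 1.55 against at most 0.0403 and went under the margin with a pseudocount of 5. Together the 10 genes made up 3.18% of the summed FPKM of H716 and 0.0394% to 0.127% of that of the other lines. The run ended at MYC, the next gene in order, which was at 52.0 in H716, inside the range of 8.96 to 85.5. Beyond MYC the long noncoding RNA PVT1 was at 1571 against 5.08 to 34.6. Of 25 protein-coding genes on each side of TRIB1, 11 were above every other line, beside 3.5% of all protein-coding genes. The 11 include ANXA13 (5.02) and FER1L6 (1.76), which lie outside the run. ANXA13, FER1L6 and POU5F1B were compared only because of their level in H716. The median difference of the 50 was 0.11 (log2). DNA copy number was not analysed here. COL14A1 and DEPTOR, on the same chromosome outside the run and chosen after their values were seen, were at 406 against at most 12.7 and at 434 against at most 45.8.

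**Figure D4:**
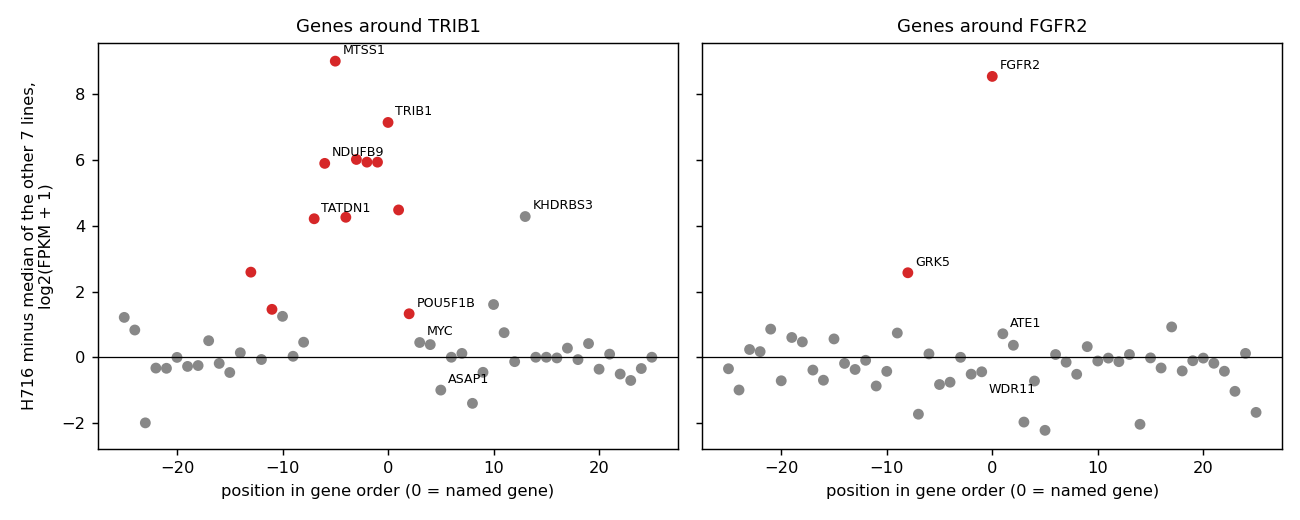
Difference between H716 and the median of the other 7 lines in log2(FPKM + 1) (y axis) for protein-coding genes in gene order (x axis, position relative to the named gene), around TRIB1 (left) and FGFR2 (right). Red points are above every other line, 12 in the left panel with TRIB1 and 2 in the right panel with FGFR2, and grey points are not.

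FGFR2, the gene of a fibroblast growth factor receptor, was at 1853 in H716 and at 0.0884 to 123 (HEC59) with a median of 3.96 elsewhere, a margin of 3.90. Its neighbours WDR11 and ATE1 were at 7.16 (9.19 to 13.1 elsewhere) and 25.5 (7.53 to 31.3 elsewhere). Of 25 genes on each side, GRK5, a kinase of G protein-coupled receptors, was the only one above every other line, at 8.49 against at most 1.74. That share was near the 3.5% of all protein-coding genes. In level, FGFR2 stood alone among these genes, unlike TRIB1.

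The other genes of this receptor family went the opposite way or did not stand apart. FGFR1 was at 0.335 in H716 and at 6.30 to 55.3 with a median of 15.2 in the other lines, so H716 was below every other line by 2.45. FGFR3 and FGFR4 were at 0.331 and 1.18, within the other lines' range. KLB, the coreceptor beta-klotho for endocrine FGFs, was at 9.90 against at most 0.204. Genes that FGF signalling induces were within or near the range. SPRY4 was highest in H716 at 56.4 against 31.9 in H661, ETV5 at 91.4 lay below the 122 of 1321N1, and DUSP6 at 74.7 below the 198 of H522. Of 19 genes of the list, FGFR2 and KLB were above and FGFR1 below every other line. Over all protein-coding genes the shares were 3.5% above and 0.996% below. FGF9 and FGF13, an FGF ligand and an intracellular relative, were at 28.2 against at most 4.43 and at 64.4 against at most 1.66, and were chosen after their values were seen.

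HOX genes gave a further short run, on chromosome 7. HOXA13, a homeobox gene of the hindgut, was at 9.11 in H716 against 1.52 in HEC59 and at most 0.413 elsewhere. HOXA10 was at 48.5 against 18.9 in HEC59, 12.95 in H146 and at most 5.53 elsewhere, and HOXA11 at 7.32 against 2.97 in HEC59. HOXA9 was highest in H716, at 25.8 against 18.1 in HEC59, by less than the margin. HOXA5 was at 38.9 against 18.1 in COV318. HEC59 was the nearest line in 4 of these 5 genes. HOXA10 went under the margin with 2 other scalings, HOXA11 with 2 scalings and a pseudocount of 5, and HOXA5 with that pseudocount. HOXB13 and HOXD13, of the same paralogue group as HOXA13, were at 1.03 and 0.0379, within the range. Of 14 posterior HOX genes compared 3 were above every other line, and of 20 anterior ones 1, a share near the 3.5% of all protein-coding genes.

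The other runs were shorter. GCG, FAP and IFIH1 lie side by side on chromosome 2. FAP, a membrane-bound serine protease, was at 194 against at most 12.5, and IFIH1, a sensor of viral RNA, at 105 against at most 23.2. On chromosome 5, PCSK1 followed GLRX, a glutaredoxin (85.5 against at most 30.9), and ELL2, an elongation factor of secretory cells (57.6 against at most 19.3). The 6 UGT2 genes formed the run on chromosome 4. H716 had 5 runs in all, and the other lines had 3 to 15.

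Genes below every other line included several that are expressed in nearly all cell types. SCRN1, a secernin of exocytosis, was at 0.678 in H716 and at 43.2 to 112 with a median of 100.4 elsewhere, a margin of -4.72 from the lowest line. TFDP2, a partner of E2F factors, was at 0.567 against 26.9 to 65.4, and QKI, an RNA-binding regulator of splicing, at 0.987 against 34.2 to 179. LITAF, an endosomal protein, was at 0.950 against 28.3 to 75.8, and ZBTB38, a methyl-DNA-binding zinc finger protein, at 0.362 against 18.3 to 72.7. In all 5 the other 7 lines lay well above an FPKM of 10 and H716 below 1. SPG20, RAB34 and COTL1, of lipid droplets, membrane traffic and actin, were at 0.333, 0.561 and 0.869, against at least 13.4, 15.4 and 18.2. ITGA6, the laminin receptor integrin alpha 6, was at 2.38 against 18.6 to 220, BNIP3, which acts in mitophagy, at 0.0278 against 8.11 to 24.1, and ENAH, an actin regulator, at 3.44 against 37.7 to 289, the last 2 chosen after their values were seen.

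Zinc finger genes were frequent among the genes below. Of 436 genes named ZNF that were compared, 23 (5.28%) were below every other line and 3 (0.688%) above. Over all protein-coding genes the shares were 0.996% below and 3.5% above. This family was chosen after its values were seen. ZNF880 was at 0.0534 in H716 against 10.04 to 14.5, and ZNF736 was listed at 0 against 9.47 to 18.7. Of the 23, 22 lie on chromosome 19, where 223 ZNF genes were compared, and 6 of the 770 other protein-coding genes there were below. Chromosome 19 held 28 of the 139 genes below every other line and 10 of the 489 above. These were 2.82% and 1.01% of the 993 protein-coding genes compared there.

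ERBB4 (ENSG00000178568), for which the lines of the series were selected, was at 76.1 in H716, inside the range of 13.4 to 102 and above the median of 33.8. Of 14 genes of ERBB receptors and ligands compared, none was past the margin in either direction. Over all protein-coding genes the shares past it were 3.5% above and 0.996% below. ERBB2 was at 1.04, below 6 of the other lines and above the 0.868 of H146, and ERBB3 (5.55) and EGFR (20.7) were within the range. No ligand reached an FPKM of 1 in H716, and NRG4, HBEGF and NRG1 were at 0.540, 0.441 and 0.626. BTK, the principal target of ibrutinib, was listed at 0 in H716 and did not exceed 0.112 in the other lines. YES1, a SRC-family kinase, was below every other line, at 9.59 against 23.0 to 143. TXK, BLK and LCK were listed at 0 in H716, while SRC (4.86), CSK (8.04) and LYN (1.96) were within the other lines' range.

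Genes of epithelial junctions were not high. CDH1, which encodes E-cadherin, was at 0.0661 in H716, and EPCAM was at 3.07 against 0.0878 to 299.7 with a median of 35.6. KRT19 (0.288), ESRP1 (0.125) and GRHL2 (listed at 0) were also low, while KRT8 (30.6) and KRT18 (37.5) lay near the middle of the range. VIM, a filament of mesenchymal cells, was at 402 and the repressor ZEB1 at 55.7, within the ranges of 0.219 to 2100 and 0.367 to 86.5. CDH2, the cadherin of mesenchymal cells, was lowest in H716, at 0.0487 against 0.446 to 209, by less than the margin. No gene of the 20 epithelial or 23 mesenchymal and matrix genes compared was past the margin in either direction. For all protein-coding genes these shares were 3.5% above and 0.996% below. H716 thus combined high CDH17 with low levels of both E-cadherin and N-cadherin.

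Integrins and YAP-related genes were low in H716 and lower still in H146. Over 28 genes the median difference of H716 from the median of the other lines was -2.20 (log2), against -0.01 for all protein-coding genes compared. YAP1 was at 6.11 in H716, 0.0586 in H146 and 29.3 to 65.0 in the other 6 lines, and its partner WWTR1 was at 1.12, 0.220 and 12.7 to 60.4. CYR61, a target of both, was at 3.86, 0.0159 and 21.2 to 248.6. H716 lay between H146 and the other lines in these 3 genes. ITGA6 was the only gene of the list below every other line, and 9 of 28 were below without H146, beside 1.87% of all protein-coding genes in that setting. ITGA2, a collagen receptor integrin, was above every other line at 42.4 against at most 5.47, and ITGA1, its relative that was not on the list, was at 43.2 against 12.4 in COV318.

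**Figure D5:**
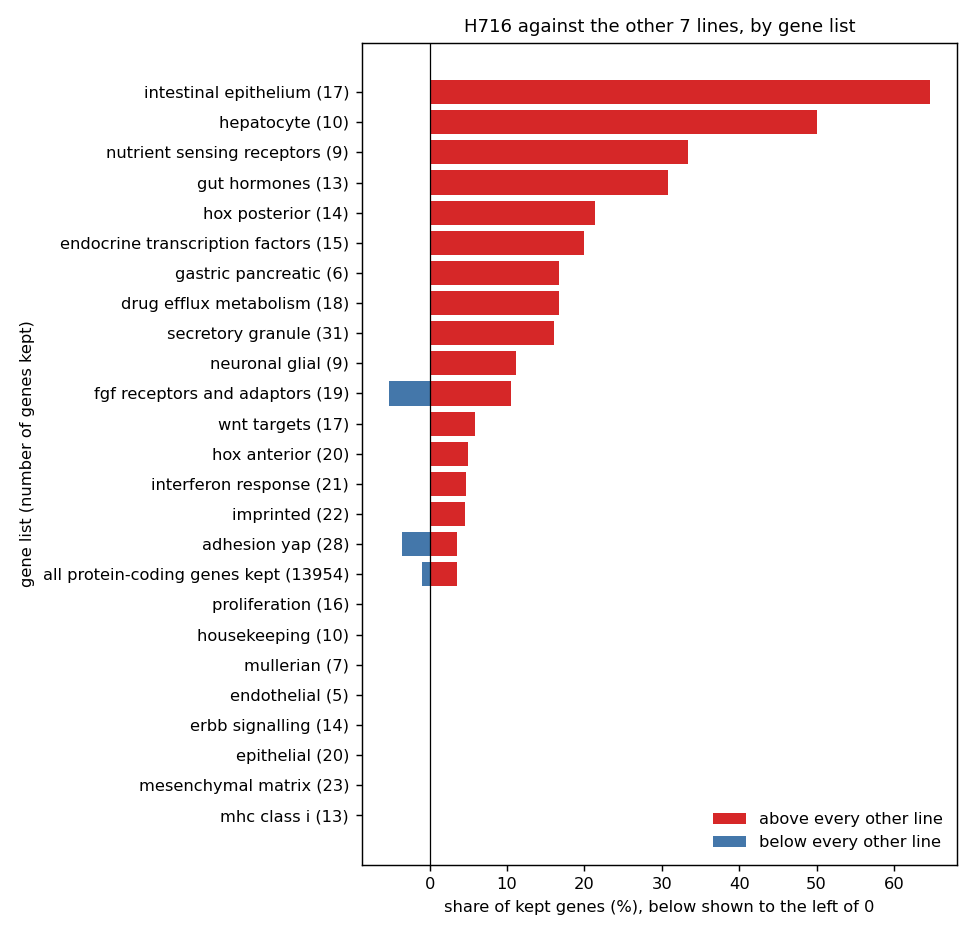
Share of the compared genes of each list (y axis, number of genes in parentheses, lists of at least 5 genes and the total of 13954 protein-coding genes) that were above every other line (red, to the right of 0) or below (blue, to the left of 0), in percent (x axis). In the intestinal list 11 of 17 genes were above, but 9 of the 17 were compared only because of their level in H716, as were 221 of all 13954 protein-coding genes.

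Of 17 targets of beta-catenin compared, SP5 alone was past the margin, beside 3.5% of all protein-coding genes above every other line. SP5 was at 4.42 against at most 0.210, was compared only because of its level in H716, and went under with a pseudocount of 5. AXIN2 was at 0.189, lowest of the 8 lines. Of 13 genes of class I antigen presentation none was past the margin, beside 3.5% above and 0.996% below of all protein-coding genes. B2M was highest in H716 at 578 against 406 in COV318. Of 21 interferon-induced genes, IFIH1 alone was above, a share near the 3.5% of all protein-coding genes. The 16 proliferation genes were within the margin of the other lines, with CCNB1 at 155 against 75.4 to 124.

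Markers of other cell types were mostly absent. PTPRC, CD3D and MS4A1 of lymphoid cells and PECAM1 and VWF of endothelial cells were listed at 0, CD79A was at 0.0681 and CD14 at 0.279. Of 12 B-cell markers, PAX5 and EBF1 reached an FPKM of 1 in H716. PAX5 was at 5.76 in H716 and 5.79 in H146, and EBF1 at 49.0 in H716 and 47.2 in 1321N1. Of 13 markers of T and myeloid cells, LYZ and CD68 did, and of 8 endothelial markers ESAM did. Fibroblast collagen COL1A1 was at 0.0879, COL1A2 at 1.79 and COL3A1 at 40.8, the last within the range of 0 to 205. The surfactant genes and NKX2-1 of lung epithelium stayed under an FPKM of 1.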

How the data were processed

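RNA of 8 cell lines, 1 library each, was sequenced. The authors deposited FPKM values per gene, per the file headers, and these are normalised for transcript length and library size. CASAVA 1.4, TopHat2 2.0.8 and SAMtools 1.0 and the build GRCh37 are named by the submitters' processing notes. The FPKM program, the gene annotation and the handling of strand are not given in the labels. FPKM values hold no read totals, so the read depth behind a value is not known and intervals were not computed.

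The 8 tables were joined on the Ensembl identifier in Python 3.11.15 with pandas 2.3.3 and numpy 2.4.6. A pseudocount of 1 was added before log2, which understates differences of low genes, and genes with an FPKM of 1 in any line were kept. Gene types and gene order came from GENCODE v29 (GRCh38), which held 82.2% of the identifiers, and promoters from RefSeq. Some genes are not reported here. With 1 library per line there was no test. The script that counts margins was checked on simulated data with known differences. Named genes were 5 markers, the 20 largest margins above and 10 below, list members past the margin and up to 4 more per list, members of runs, ERBB4 and the cell type markers, and every other gene named was chosen after its values were seen. Members and lists were chosen with earlier results of these data known. Alternatives were pseudocounts of 0.1 and 5, other filters, 3 scalings, margins of 0.5 and 2, and leaving out each other line.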

Additional observations from a re-analysis of the deposited data

How the results depend on the processing

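Of 81 genes whose margins were recomputed (the 5 markers, the largest margins, list members past the margin and the chromosome 8 run), none reversed under any alternative, and other named genes were not recomputed. No paired analysis was possible because each line has 1 library. Counts of all genes moved most with the choice of pseudocount and margin, and counts of list members when H146 was left out. The protein-coding genes above every other line numbered 308 with a pseudocount of 5, 201 with a margin of 2 and 919 with a margin of 0.5, against 489, and those below numbered 411 with a pseudocount of 0.1, 37 with a pseudocount of 5, 37 with a margin of 2 and 407 with a margin of 0.5, against 139. List members below every other line, 2 in the main analysis, were 7 with a pseudocount of 0.1 and 5 with a margin of 0.5. With single lines left out, genes above ranged from 518 to 641, genes below from 159 to 254, list members above (49 with all lines) from 49 to 74 and list members below from 2 to 12, and the highest of each was without H146. The 3 scalings gave 400 to 474 genes above and 118 to 185 below and shifted the median by at most -0.09 (log2). Dropping the filter changed no count, since a gene under an FPKM of 1 in all lines cannot pass the margin. Of the 81 genes, 13 went under the margin with a pseudocount of 5 and 3 to 5 with the scalings. Values near 0 rest on few fragments.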

Other observations

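Subunits of receptors for the inhibitory transmitters GABA and glycine were counted after their values were seen. Of 14 compared, 6 were above every other line, beside 3.5% of all protein-coding genes. GABRR1 was at an FPKM of 58.1 against 3.35 in COV318 and at most 0.174 elsewhere, and GABRB2, GLRA2 and GABRA5 were at 25.5, 24.8 and 18.8 against at most 0.785. GABRE was at 2.51 against at most 0.103. MAOA and MAOB, the monoamine oxidases, were at 37.9 and 34.1 against at most 2.89 and 0.698, and MFNG, a fringe that modifies Notch receptors, was at 34.4 against at most 0.172. The last 3 genes were also chosen after their values were seen.

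The genes above every other line were unevenly spread over chromosomes. They were 8.41% of the 559 protein-coding genes compared on chromosome 4, 7.27% of the 523 on the X chromosome, 5.93% of the 253 on chromosome 13 and 5.60% of the 482 on chromosome 8, against 1.01% of the 993 on chromosome 19. The 27 genes on chromosome 8 include the run of 10. The 47 on chromosome 4 include the run of 6 UGT2 genes, whose single values are uncertain.

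Genes of other types with the largest margins were listed at 0 in all other lines, and AC138783.13, HAR1A and WI2-925H4.1 are not in GENCODE v29. AC138783.13 was at 2010, the small nuclear RNA CTD-2373N4.1 at 483, and HAR1A and WI2-925H4.1 both at 75.9. KIAA0196-AS1, the antisense partner of KIAA0196, was at 102 against at most 3.78, and since the handling of strand is not given in the labels its reads cannot be told from those of KIAA0196.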
